A study of Homo sapiens with 2 samples.

Results

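LDB1 peaks of intermediate width that stand alone on their chromosome were examined in NB4 cells, a human acute promyelocytic leukaemia line that carries the PML::RARA fusion. The cells were untreated, and the sites were mapped by CUT&Tag, which uses an antibody to bring Tn5 transposase to the protein, where it cuts the DNA and adds sequencing adapters. There was 1 library with an LDB1 antibody, whose peak list is used here, and 1 with non-specific IgG, which was not analysed here. Members were the deposited peaks on chromosomes 1 to 22 and X of at least 1000 and under 3000 bp with no other listed peak within 50 kb of either edge. There were 570 of them among 52765 peaks on these chromosomes (1.08%), and 53742 peaks in the whole list. They were 6.89% of the 8275 peaks of that width and 9.03% of the 6313 peaks that stood alone at that distance. Together they covered 0.769 Mb. The list gave positions and widths only, so depth and binding strength were unknown. With no replicate, no test was made between samples. Intervals are exact (Clopper-Pearson) 95% binomial intervals and cover counting error within this list only. They take each peak or gene as independent, which peaks close together may not be. Coordinates are hg38, counted from 1.

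LDB1 does not bind DNA itself. It dimerises and, through LMO proteins, joins GATA factors and basic helix-loop-helix proteins such as TAL1 and the E proteins into complexes that bring enhancers and promoters together. GATA factors read the GATA motif and helix-loop-helix dimers read E-boxes. In blood cells these complexes are best known at the regulatory elements of red cell and progenitor genes. Many vertebrate promoters lie in CpG islands, stretches in which the CG dinucleotide, rare in most of the genome, is frequent.

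The sequences below show what the members at promoters cover. Of the 570 members, 180 (31.6%, interval 27.8 to 35.6%) held the whole RefSeq promoter window of a protein-coding gene. The window runs from 250 bases before the gene's start to 50 after. The share was 10.9% (10.2 to 11.6%) in peaks of the same width that had a neighbour within 50 kb, and 4.30% in all peaks. All peaks had a median width of 550 bp, and a narrower peak holds a whole window less often by construction. The promoter windows under the 6 widest of these 180 members are printed from RefSeq GRCh38.p14, 5′ to 3′ on the strand of the gene, with every CG dinucleotide in capitals. They belong to CHST11 (chr12:104456698-104456997, plus strand), SLC38A1 (chr12:46267938-46268237, minus), LAMB1 (chr7:108003112-108003411, minus), FGF12 (chr3:192409548-192409847, minus), KCNQ5 (chr6:72621814-72622113, plus) and DPP10 (chr2:115161905-115162204, plus).
CHST11: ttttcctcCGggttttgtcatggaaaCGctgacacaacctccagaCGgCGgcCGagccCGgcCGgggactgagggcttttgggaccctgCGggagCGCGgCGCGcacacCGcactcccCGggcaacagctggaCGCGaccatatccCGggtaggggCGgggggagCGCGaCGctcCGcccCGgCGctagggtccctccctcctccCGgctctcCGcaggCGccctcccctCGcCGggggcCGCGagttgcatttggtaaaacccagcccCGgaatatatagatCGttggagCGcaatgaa
SLC38A1: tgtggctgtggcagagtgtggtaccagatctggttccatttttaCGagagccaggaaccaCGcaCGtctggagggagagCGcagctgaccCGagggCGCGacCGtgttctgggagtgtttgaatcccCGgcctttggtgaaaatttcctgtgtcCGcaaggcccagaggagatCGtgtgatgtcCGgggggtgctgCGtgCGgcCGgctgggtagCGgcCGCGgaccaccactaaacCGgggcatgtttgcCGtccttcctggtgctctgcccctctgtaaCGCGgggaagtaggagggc
LAMB1: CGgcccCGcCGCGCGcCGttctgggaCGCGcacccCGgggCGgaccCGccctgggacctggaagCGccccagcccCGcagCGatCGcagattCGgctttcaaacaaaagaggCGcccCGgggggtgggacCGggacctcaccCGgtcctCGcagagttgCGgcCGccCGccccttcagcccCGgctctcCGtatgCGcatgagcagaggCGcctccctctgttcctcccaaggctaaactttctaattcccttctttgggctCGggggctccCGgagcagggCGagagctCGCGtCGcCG
FGF12: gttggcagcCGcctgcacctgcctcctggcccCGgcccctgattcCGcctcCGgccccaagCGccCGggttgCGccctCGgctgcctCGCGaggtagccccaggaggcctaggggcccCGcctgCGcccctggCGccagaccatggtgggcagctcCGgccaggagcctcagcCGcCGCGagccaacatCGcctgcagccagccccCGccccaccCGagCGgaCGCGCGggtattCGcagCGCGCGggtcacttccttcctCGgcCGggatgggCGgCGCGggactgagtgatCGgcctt
KCNQ5: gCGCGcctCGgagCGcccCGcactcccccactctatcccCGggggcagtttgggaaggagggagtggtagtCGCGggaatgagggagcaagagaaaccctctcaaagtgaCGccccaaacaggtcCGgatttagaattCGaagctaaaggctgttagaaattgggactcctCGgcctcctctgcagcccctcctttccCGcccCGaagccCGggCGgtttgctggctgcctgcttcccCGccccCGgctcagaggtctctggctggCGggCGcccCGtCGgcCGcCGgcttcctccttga
DPP10: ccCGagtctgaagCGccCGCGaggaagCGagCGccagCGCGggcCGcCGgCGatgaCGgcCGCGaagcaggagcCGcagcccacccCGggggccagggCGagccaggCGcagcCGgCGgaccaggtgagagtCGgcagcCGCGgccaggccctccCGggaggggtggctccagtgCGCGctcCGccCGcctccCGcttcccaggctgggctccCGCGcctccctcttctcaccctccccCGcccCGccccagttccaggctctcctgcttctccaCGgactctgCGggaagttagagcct

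These 6 windows held 34 CG dinucleotides at CHST11, 22 at SLC38A1, 35 at LAMB1, 34 at FGF12, 24 at KCNQ5 and 35 at DPP10. CHST11 encodes a chondroitin sulfotransferase, SLC38A1 a glutamine transporter and LAMB1 the laminin beta 1 chain. FGF12 encodes an intracellular regulator of sodium channels, KCNQ5 a potassium channel subunit and DPP10 an accessory subunit of potassium channels. The GATAA motif, searched on both strands, was in none of the 6. The E-box CAGNTG was found once each in the windows of CHST11, SLC38A1, FGF12 and DPP10, and was absent from those of LAMB1 and KCNQ5.

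The same held for the other promoters under members. The 192 windows wholly inside a member, counted once per gene, had a median of 34 CG dinucleotides (quartiles 27 and 38). The median was 30 in the 898 windows inside peaks of the same width that had a neighbour, 29 in the 277 inside narrower isolated peaks, and 22 over all 15812 protein-coding genes with a window. At least 10 CG dinucleotides were present in 191 of 192 member windows, 99.5% (97.1 to 100%). The share was 92.0% (90.0 to 93.7%) in the windows of neighboured peaks, 97.8% (95.3 to 99.2%) in those of narrower isolated peaks and 73.0% over all genes. The median GC content was 71.8, 69.7, 69.3 and 62.7% in the same order, and the median ratio of observed to expected CG was 0.876, 0.841, 0.857 and 0.763.

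**Figure D1:**
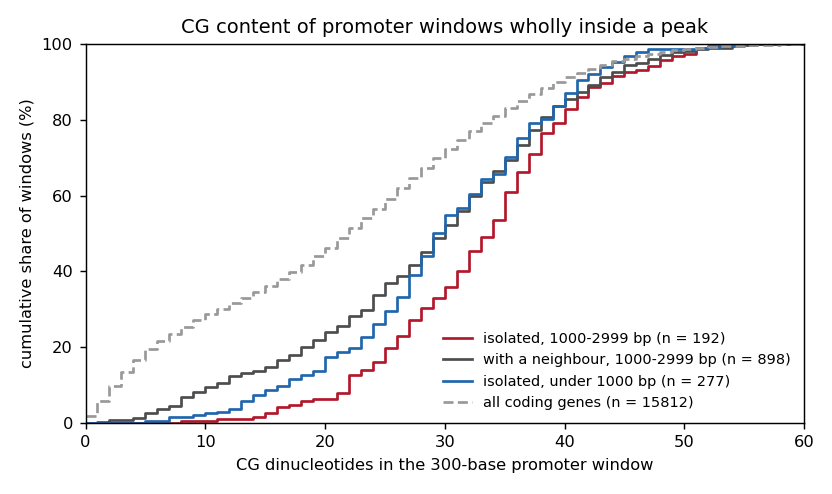
Cumulative share of 300-base promoter windows (%) against the number of CG dinucleotides in the window, for windows wholly inside an isolated intermediate peak, a neighboured peak of the same width or a narrower isolated peak, and for all coding genes with a window. The median of the isolated intermediate peaks is 34, against 22 for all coding genes.

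The motifs read by GATA factors, helix-loop-helix dimers and RUNX factors were no more frequent in these windows than over all promoters. GATAA occurred in 19 of 192 member windows, 9.90% (6.06 to 15%), against 13.5% (11.3 to 15.9%) in the windows of neighboured peaks and 18.2% over all genes. CAGNTG occurred in 46.9% (39.7 to 54.2%), against 44.7% (41.4 to 48.0%) and 47.0%. TGTGGT, the core read by RUNX factors, occurred in 6.25%, against 6.79 and 10.8%. GGGCGG, the GC box of SP and KLF factors, occurred in 165 windows, 85.9% (80.2 to 90.5%), against 78.7% (75.9 to 81.4%) and 58.5%. CCGGAA, a core read by ETS factors, occurred in 16.7%, against 19 and 22.8%, and CCAAT in 19.8%, against 31.2 and 36.3%. In the 277 windows of narrower isolated peaks GATAA occurred in 9.39% (6.22 to 13.5%), CAGNTG in 48.7% and TGTGGT in 6.50%. The low GATAA and TGTGGT shares are thus not particular to the members. GGGCGG occurred there in 74.7% (69.2 to 79.7%), and CCGGAA and CCAAT in 26.0% each. All motifs were searched on both strands, and matches of different motifs could overlap. The windows differ in base composition, and so do the motifs. GATAA is rich in A and T, while GGGCGG and CCGGAA each hold a CG. The part of composition in these shares was not tested.

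The members lay at the ends of protein-coding genes more often than the other peaks. A midpoint within 1 kb of a gene end was found for 244 of 570 members, 42.8% (38.7 to 47.0%). The share was 19.6% (18.7 to 20.5%) in the 7705 peaks of the same width that had a neighbour, 16.1% (15.2 to 17.1%) in the 5740 isolated peaks under 1000 bp, and 14.9% over all peaks. The rest of the gene bodies held 164 members, 28.8% (25.1 to 32.7%), against 50% (48.9 to 51.1%), 34.4% (33.1 to 35.6%) and 48.7%. Sequence outside genes held 162 members, 28.4% (24.8 to 32.3%), against 30.4% (29.4 to 31.4%), 49.5% (48.2 to 50.8%) and 36.3%. The intervals of the members and of the neighboured peaks did not overlap at gene ends or in gene bodies and did overlap outside genes. Neighboured peaks lay a median of 1.66 kb from the nearer peak, so their intervals may be too narrow and this is not read as a test. Width and spacing chose the members. Gene position was not a criterion, but it may be tied to spacing. Of several neighboured peaks at a gene, only those near its ends count there, and a broad region may be listed as several peaks. The part of this in the shares was not tested.

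**Figure D2:**
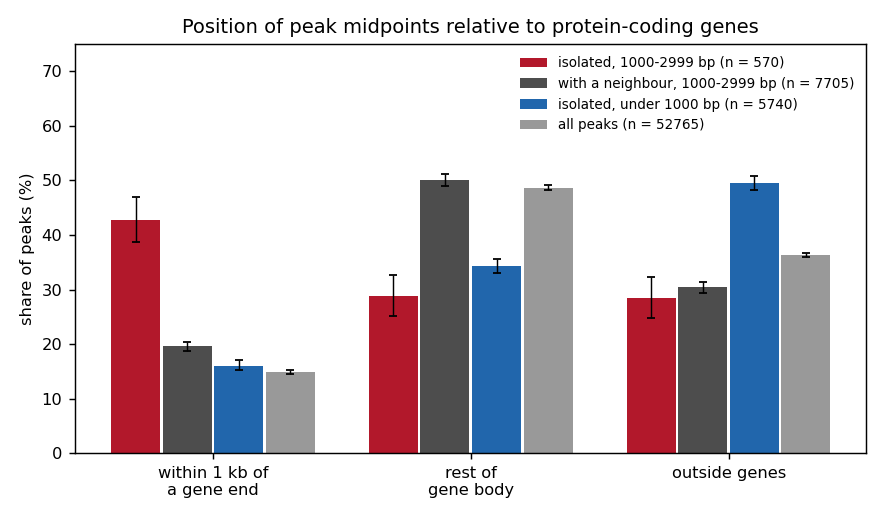
Share of peaks (%) with the midpoint within 1 kb of a gene end, in the rest of a gene body or outside protein-coding genes, for isolated intermediate peaks, neighboured peaks of the same width, narrower isolated peaks and all peaks; bars are shares and error bars exact 95% intervals. At gene ends the isolated intermediate peaks stand at 42.8% and the other sets between 14.9 and 19.6%.

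Nearly all gene ends under members were gene starts. The strand, known for 15812 of 19974 coding genes from the promoter table, allowed 203 of the 244 to be sided, and 202 of these (99.5%, 97.3 to 100%) had a gene start within 1 kb. In neighboured peaks of the same width it was 920 of 1139 (80.8%, 78.4 to 83.0%), in narrower isolated peaks 732 of 762 (96.1%, 94.4 to 97.3%), and in all peaks 79.2%. As a share of each set, 35.4% of members lay at a start (31.5 to 39.5%), against 11.9% (11.2 to 12.7%) of neighboured peaks, 12.8% (11.9 to 13.6%) of narrower isolated peaks and 9.20% of all peaks. The one sided member with only a far end in reach lay 0.917 kb beyond that of GPD1L, which encodes a glycerol-3-phosphate dehydrogenase-like enzyme (chr3:32169086-32170167, 1082 bp). The other 41 members at gene ends could not be sided, 15 of them on chromosome 8.

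Both limits of the rule moved with the gene-end share. Among peaks of this width it was 15.8% (14.4 to 17.2%) with a neighbour within 1 kb, 24.7% (21.8 to 27.8%) at 5 to 10 kb, 31.9% (28.7 to 35.3%) at 10 to 25 kb and 36.1% (31.5 to 41.0%) at 25 to 50 kb. Inside the rule it showed no further gradient, with 44.3% at 50 to 75 kb, 38.0% at 75 to 100 kb, 44.4% at 100 to 200 kb and 41.2% (30.4 to 52.8%) beyond. Among isolated peaks it was 11.8% (10.7 to 13%) under 500 bp, 21.6% (20 to 23.2%) from 500 bp, 41.7% (37.0 to 46.5%) from 1000 bp, 46.4% (37.0 to 56.1%) from 1500 bp and 45.2% (27.3 to 64.0%) from 2000 to under 3000 bp. The last class had 31 peaks. In neighboured peaks the 3 wider classes differed little, at 19.3, 21.0 and 18.7%.

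**Figure D3:**
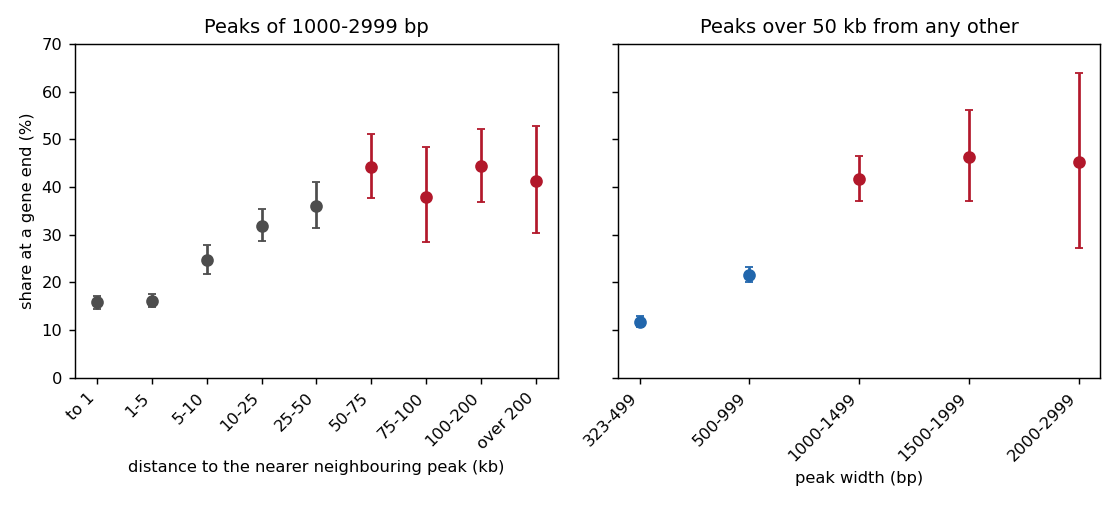
Share of peaks at a gene end (%) by distance to the nearer neighbouring peak for peaks of intermediate width (left), and by width for peaks over 50 kb from any other (right); points are shares, error bars exact 95% intervals, and red marks the isolated intermediate peaks. The share is 15.8% with a neighbour within 1 kb and between 38.0 and 44.4% in the 4 classes over 50 kb.

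The surroundings of the members were poor in genes. A median of 1.5 protein-coding genes reached into the 100 kb on either side of a member's midpoint, against 3 for neighboured peaks of the same width and 1 for narrower isolated peaks. No gene did so for 73 members, 12.8% (10.2 to 15.8%), against 4.46% (4.01 to 4.95%) and 26.6% (25.4 to 27.7%). The gene-end shares were also taken by the number of genes in reach. With 1 gene in reach the share was 50.9% (44.0 to 57.9%) in members and 12.7% (10.9 to 14.8%) in neighboured peaks. With 2 it was 50% (41.5 to 58.5%) and 17.2% (15.1 to 19.4%), and with 3 or more it was 45.5% (37.1 to 54.0%) and 23.2% (22 to 24.4%). That last class is not matched, since the number of genes in reach went up to 10 in members and 23 in neighboured peaks. The part of gene density in these shares was not tested.

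The members' peaks reached over the start itself, mostly into the gene. A start of a protein-coding gene, alternative starts included, lay inside 223 members, 39.1% (35.1 to 43.3%), against 13.2% (12.5 to 14.0%) of neighboured peaks, 9.63% (8.88 to 10.4%) of narrower isolated peaks and 7.09% of all peaks. Narrower peaks cover a given point less often by construction, here and in the later counts of covered starts. Only the neighboured peaks share the members' range of widths. Genes without a promoter window, all of chromosome 8 with its 28 members among them, could not count here, so the shares at or over a start and over a promoter window are minimum values in every set. For the 212 members over the start of a single gene, the peak ran a median of 488 bp before the start and 850 bp after it. The midpoint lay downstream of the start in 153 of the 212 (72.2%, 65.6 to 78.1%). In 952 neighboured peaks the medians were 560 bp before and 840 bp after, with 65.2% (62.1 to 68.3%) downstream. In 11 members the starts of 2 or more coding genes were covered, always on both strands. Among these pairs were CEP57, which encodes a centrosomal protein, with FAM76B (chr11:95789080-95791120, 2041 bp), and PHKB, a phosphorylase kinase subunit, with ITFG1 (chr16:47460703-47461753, 1051 bp). These pairs were named after their values were seen.

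The genes with a member at an end were long. The 259 such genes, 1.30% of all protein-coding genes, had a median length of 116 kb (quartiles 47.1 and 268 kb), against 19.6 kb for the 1594 genes with a neighboured intermediate peak at an end, 62.6 kb for the 1012 with a narrower isolated peak and 24.2 kb over all coding genes. For 158 of the 259 (61%, 54.8 to 67.0%) the member was the only LDB1 peak in the gene or within 10 kb of it. That was so for 11.5% (10 to 13.2%) of the genes with a neighboured peak and for 75.9% (73.1 to 78.5%) of those with a narrower isolated peak. The rule on neighbours works against it in the neighboured set and for it in both isolated sets. With no other peak within 50 kb, it is fixed in advance for genes short enough to lie within that reach. These shares are therefore not read as a trait of the members. The number of LDB1 peaks in or within 10 kb of one of the 259 genes, the member included, reached 26.

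The widest member of all, 2923 bp, lay 0.120 kb from an end of TOX, which encodes a high mobility group factor of T cell development (chr8:59117566-59120488). The nearer neighbouring peak was 53.7 kb away. A member of 2618 bp lay at an end of ADCY8, an adenylyl cyclase gene (chr8:131039934-131042551), with no peak within 220 kb. Neither gene had a strand in the table. At the start of SLC38A1 the member was 2528 bp wide (chr12:46267396-46269923), and at that of LAMB1 it was 2343 bp (chr7:108001247-108003589). The member at USP9X, a deubiquitinase gene, was 2294 bp wide (chrX:41084421-41086714), and that at the start of SLC22A23, a gene of the organic ion transporter family, was 2270 bp (chr6:3455551-3457820). KCNQ5 had 2189 bp at its start (chr6:72621204-72623392) and NWD2 had 2107 bp (chr4:37243640-37245746). ALKAL1, which encodes a ligand of the ALK receptor, had 2131 bp (chr8:52563710-52565840), and THUMPD1, an adaptor gene for tRNA acetylation, had 2101 bp at its start (chr16:20741058-20743158).

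Some other gene ends are given as single examples, chosen by hand from the 259 after their values were seen, and stand for no group. JAK2, the kinase of many cytokine receptors, had a member of 1081 bp at its start (chr9:4984505-4985585). TLE1, a Groucho corepressor gene, had 1131 bp at its start (chr9:81688442-81689572). KDR, the VEGF receptor gene of endothelium and its precursors, had 1389 bp at its start (chr4:55124610-55125998). RUNX1T1, which encodes the corepressor ETO, had one of just under 2000 bp at an end (chr8:92101584-92103582), and ZFPM2, the gene of the GATA cofactor FOG2, had 1913 bp (chr8:105318004-105319916). MAP3K8, an inflammatory kinase gene, had 2019 bp at its start, NFE2L2, the gene of the oxidative stress factor NRF2, had 1904 bp, and the protein kinase C genes PRKCA and PRKCB had 1629 and 1599 bp. JAK2 and NFE2L2 stood close to the limit of spacing, with the nearer peak at 56.0 and 50.4 kb.

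No member lay in or within 10 kb of a gene on the 4 blood lists examined, none of which was a list of red cell genes. The count was 0 of 21 genes of the LDB1 complex, 0 of 22 myeloid factors, 0 of 23 stem and progenitor factors and 0 of 25 granulocyte genes, against 2.37% of all protein-coding genes (473 of 19974). Of these 91 genes, 73 (80.2%) had some LDB1 peak within that distance and 36 (39.6%) had a neighboured peak of the same width, against 70.1 and 23.4% of all coding genes. With so low a share over all genes, a count of 0 in lists of this size is near the background and is not read as a difference. The lists of cohesin and looping factors (16 genes), cytosolic ribosomal proteins (30), DNA replication and repair (20), proteasome subunits (20) and chromatin regulators (23) also had none.

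Of the other lists, the neuron and adhesion genes had the most, 6 of 20 (30%). CNTNAP2, a neurexin-family gene, had a member 0.561 kb from its start (chr7:146115627-146116853, 1227 bp). RBFOX1, a neuronal splicing factor gene, held one 780 kb from its start over an internal start (chr16:6019425-6020582, 1158 bp). GRIK2, a kainate receptor gene, held one 8.83 kb from its start (1269 bp), and CTNND2, which encodes delta-catenin, held one of 1077 bp. AUTS2, a neurodevelopmental gene, held one of 1984 bp 98.8 kb from its far end, and NCAM1, a cell adhesion gene, held one of 1123 bp 4.84 kb from an end. The 6 genes were 317 to 2474 kb long, and the part of gene length in this count was not tested. RARB, a retinoic acid receptor gene, was the only one of 20 retinoic acid response genes, with 1242 bp at its start and 262 kb to the nearer peak (chr3:24829452-24830693). SRSF1, a splicing factor gene, had a member barely over 1000 bp at its start (1 of 20). For RARB and SRSF1 alike, 1 of 20 is near the share over all coding genes and is not read as a difference.

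Gene families were picked by symbol after the members' names were seen, so their counts are a description only. Over all coding genes 1.30% had a member at an end. The members took in 4 of 20 GALNT genes, which start mucin-type O-glycosylation (GALNT3, GALNT10, GALNT14 and GALNT17). They also took in 3 of 20 ADAM genes (ADAM17, ADAM19 and ADAM23) and 2 of 12 laminin chains (LAMB1 and LAMC1). They took in 7 of 386 solute carriers (1.81%), 2 of 96 potassium channel genes (2.08%), 1 of 517 ZNF genes (0.193%), 5 of 233 TMEM genes (2.15%) and 1 of 78 GPR genes (1.28%). The 392 olfactory receptor, 40 HOX, 55 keratin and 65 PCDH genes had none, where neighboured peaks of the same width lay at an end of 0, 9, 2 and 2 of them. The solute carrier, potassium channel, TMEM and GPR shares, and counts of 0 in families of this size, are near the share over all genes.

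Inside gene bodies the members lay nearer the start than neighboured peaks did as a share of the gene's length. A larger share of them also lay over 100 kb from it, as was so for narrower isolated peaks. Of 164 body members, 134 lay in a single gene of known strand, and their median position was 0.412 of the way from the start to the far end (quartiles 0.154 and 0.609). In neighboured peaks of the same width the median was 0.583 (2919 peaks, quartiles 0.318 and 0.805), in narrower isolated peaks 0.482 (1584 peaks) and in all peaks 0.553. The first 10% of the gene's length held 26 of the 134, 19.4% (13.1 to 27.1%), against 7.85% (6.90 to 8.88%) of neighboured peaks and 11.4% (9.90 to 13.1%) of narrower isolated peaks. Nearer to the start than to the far end lay 59.7% of the members (50.9 to 68.1%) and 41.7% of the neighboured peaks (39.9 to 43.5%). For narrower isolated peaks it was 51.1% (48.6 to 53.6%). Midpoints within 1 kb of an end are not in these counts, which thins the outer parts of short genes most. The host genes differed in length, with a median of 182 kb for members, 58.8 kb for neighboured peaks and 226 kb for narrower isolated peaks. In distance, 18.7% of the members (12.5 to 26.3%) lay 1 to 5 kb from the start, against 13.6% (12.4 to 14.9%) of neighboured peaks. At 5 to 20 kb it was 10.4% (5.83 to 16.9%) against 29.7% (28.0 to 31.4%), and beyond 100 kb 38.1% (29.8 to 46.8%) against 17.1% (15.7 to 18.5%). In narrower isolated peaks it was 7.77% at 1 to 5 kb, 10.9% at 5 to 20 kb and 46.7% (44.2 to 49.1%) beyond 100 kb. The low share at 5 to 20 kb and the high share beyond 100 kb are thus not particular to the members.

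**Figure D4:**
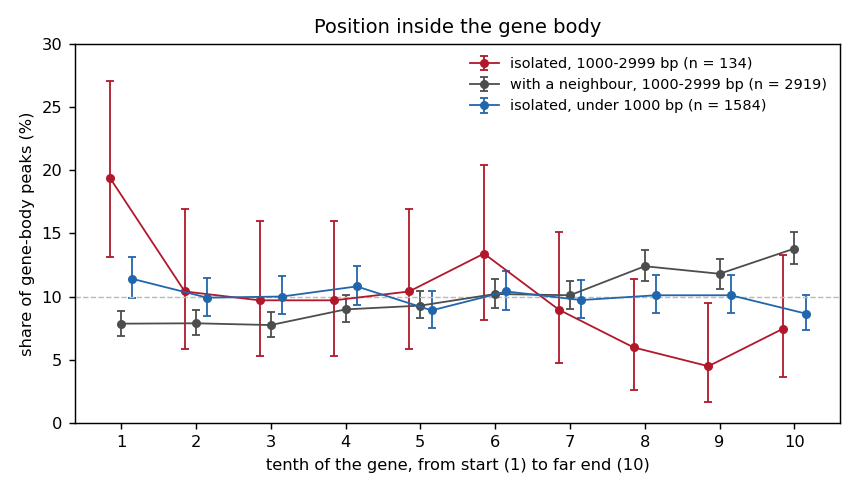
Share of gene-body peaks (%) in each 10% of the gene's length from the start to the far end, for isolated intermediate peaks, neighboured peaks of the same width and narrower isolated peaks in a single gene of known strand; error bars are exact 95% intervals and the dashed line is an even spread. The isolated intermediate peaks stand at 19.4% in the first 10% and the neighboured peaks at 7.85%.

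Part of the body members covered an annotated start, either one inside the gene or the gene's own outer start with the midpoint over 1 kb in. An annotated start of a coding gene lay within 39 of the 164, 23.8% (17.5 to 31.0%), against 5.81% (5.10 to 6.6%) of neighboured and 4.82% (3.91 to 5.85%) of narrower isolated body peaks. Among the 10 widest body members, those of FGF12 (2248 bp, 0.541 of the way along) and DPP10 (2126 bp, 0.513) covered such internal starts. Those of CHST11 (2907 bp) and TRIL (2760 bp), a Toll-like receptor cofactor gene, covered a start with the midpoint 1.02 and 1.37 kb inside. PCDH19 (2638 bp) and PCDH17 (2325 bp), which encode protocadherins, had theirs 2.22 and 3.38 kb from the start, with no start covered. C1QL3, a synaptic C1q-like gene, had one of 2201 bp, and ARHGAP20 had one of 2197 bp 1.05 kb from an end. ETFA, which encodes an electron transfer flavoprotein subunit (2619 bp), and GALNT13 (2050 bp) had theirs at 0.532 and 0.579 of the gene, with no start covered.

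Within the span of 5 genes lay 2 members each. ARHGAP6 had one of 1266 bp at 0.00219 of its length and one of 1311 bp at 0.853, HECW1 one of 1382 bp at 0.00118 and one of 1196 bp at 0.733, and LIMCH1 one of 1256 bp at 0.00422 and one of 1393 bp at 0.388. In these 3 genes one of the pair stood close to the start. PPP2R2B held 1180 and 1471 bp at 0.406 and 0.748. SRFBP1 held 1053 bp at 0.392 and 1812 bp at 0.990, and the second of these is also the member at the start of LOX, the lysyl oxidase gene.

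Outside protein-coding genes the members were far from any. The 162 had a median distance of 74.4 kb to the nearest coding gene (quartiles 26.1 and 266 kb), against 20 kb for neighboured peaks and 115 kb for narrower isolated peaks. A long non-coding RNA gene overlapped 39 of them, 24.1% (17.7 to 31.4%), against 23.2% (21.5 to 25%) and 25.2% (23.6 to 26.8%). A pseudogene not annotated as transcribed overlapped 19, 11.7% (7.21 to 17.7%), against 9.01% (7.88 to 10.2%) and 3.84% (3.16 to 4.61%). The start of a long non-coding RNA lay inside 7 of the 162, 4.32% (1.75 to 8.70%), against 5.59% (4.70 to 6.6%) of neighboured and 1.27% (0.889 to 1.75%) of narrower isolated peaks outside genes. In any position it lay inside 9.47% of the 570 members, against 4.76% of neighboured peaks and 2.34% of all peaks.

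The widest member outside genes, 2141 bp, lay 23 kb from TP53TG3B (chr16:33336791-33338931). The next were 2092 bp 4.25 kb beyond the far end of ARSB, an arylsulfatase gene (chr5:78771916-78774007), and 2085 bp 1098 kb from ASB3 (chr2:52570919-52573003). One of 1929 bp over the start of MIR663AHG lay at the edge of the peak-free middle of chromosome 20 (chr20:26207972-26209900), and one of 1921 bp lay 99.0 kb from SPATA31A6 (chr9:42287897-42289817). TP53TG3B and SPATA31A6 belong to families of near-identical copies, so the reads behind these peaks are uncertain. No peak was filtered here for repeats or for how uniquely its reads map, so the same may hold for other members outside genes. The rest of the 10 widest lay 1.5 kb from TMEM67 (2074 bp), 18.7 kb from SLC71A2 (2011 bp), 36.2 kb from ABHD5 (2007 bp), 261 kb from BTG1 (1986 bp) and 33.6 kb from ANKRD31 (1945 bp). BTG1, an antiproliferative gene, also had a member of 1558 bp at its start.

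The most isolated member had no peak within 1095 kb. It lay 0.183 kb from the start of EPHA6, an ephrin receptor gene (chr3:96813717-96815106, 1390 bp). The next was 1172 bp wide, 1.93 kb inside the start of DACH1, a gene of a nuclear corepressor, with the nearer peak at 941 kb (chr13:71864691-71865862). The RBFOX1 member followed at 768 kb. The other 2 lay 721 kb from the nearer peak and 833 kb from CADM2 (1238 bp), and 715 kb from the nearer peak and 759 kb from KCNV1 (1378 bp). Over all members the median distance to the nearer peak was 88.9 kb (quartiles 65.2 and 150 kb), and 21 had a peak-free stretch of 1 Mb or more on a side.

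**Figure D5:**
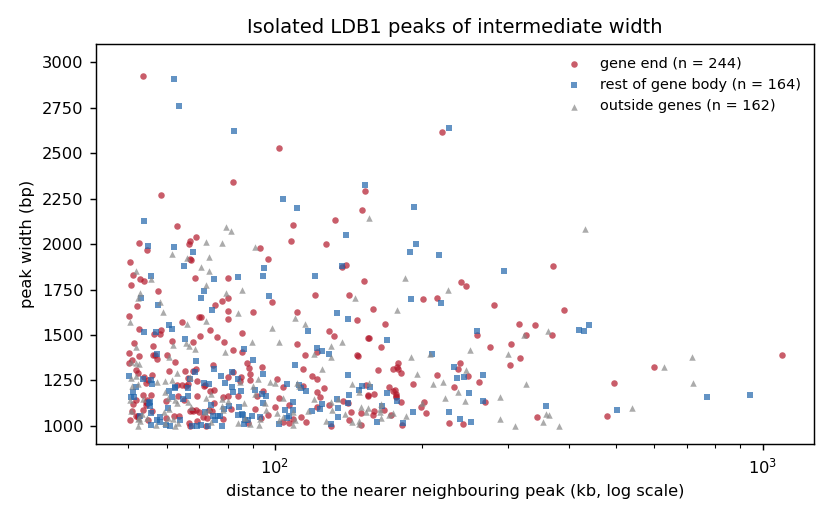
Width (bp) against the distance to the nearer neighbouring peak (kb, log scale) for each of the 570 members, marked by position at a gene end, in the rest of a gene body or outside genes. Members of all 3 positions spread over the whole range of widths up to 2141 bp and of distances up to 721 kb.

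The chromosomes differed in how many of their intermediate peaks stood alone. It was 17 of 75 (22.7%, 13.8 to 33.8%) on chromosome 13, 33 of 160 (20.6%, 14.6 to 27.7%) on chromosome X and 44 of 301 (14.6%, 10.8 to 19.1%) on chromosome 4. It was 3 of 641 (0.468%, 0.0966 to 1.36%) on chromosome 19, 4 of 356 (1.12%) on chromosome 22 and 7 of 482 (1.45%) on chromosome 17. The gene-end share was higher in members than in neighboured peaks on 22 of 23 chromosomes. The exception was chromosome 22, with 0 of 4 against 13.1%.

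The member widths had a median of 1234 bp (quartiles 1094 and 1504 bp), against 1318 bp in neighboured peaks of the rule's range, and 427 of the 570 were under 1500 bp wide. Just inside the limits lay a peak of 1000 bp at an end of SMAD2, peaks of 2923 bp at TOX and 2907 bp at CHST11, and peaks with gaps of 50.1 kb at GPAT3 and 50.2 kb at PLCG1. Just outside lay peaks just under 1000 bp at SERPINA4 and SPOCK3, of 3156 bp in TENM4 and 3207 bp in MFHAS1, and with gaps of 49989 bp near CLINT1 and 49952 bp near ALDH3B2. Isolated peaks of 3000 bp or more numbered 3, all in gene bodies.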

How the data were processed

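CUT&Tag libraries were made with the Hyperactive Universal kit, per the labels' protocols. The deposited LDB1 table gave chromosome, start, end and width of each peak, per the file headers with both edges counted. Named in the submitters' processing notes are hg38, Bowtie2 2.4.1 and MACS2 2.0.10. The caller's threshold, the handling of duplicates and the use of IgG are not given in the sources. A broad region may be listed as several neighbouring peaks, which then fail the rule, and open chromatin background was not told apart from LDB1 binding.

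Each midpoint was assigned to a gene end (1 kb), else a gene body, else outside, with 19974 RefSeq GRCh38.p14 coding genes. Strand came from RefSeq promoter windows, present for 15812 genes. Analyses used Python 3.11.15, pandas 2.3.3 and scipy 1.17.1, and positions were checked against planted ones. No p-value was computed. Members, gene lists and comparisons were chosen with earlier results of these data known. Named genes were the 10 widest members per position, the 5 most isolated, those at each limit, up to 5 genes with 2 or more members and all listed genes with a member; others are said to be named after their values were seen. One gene list and 1 peak at a limit are not reported here. Alternatives changed spacing, width, gene-end distance, biotypes, the list window, the choice among overlapping genes and the outer 5 Mb of chromosomes.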

Additional observations from a re-analysis of the deposited data

How the results depend on the processing

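Of 58 alternatives, 32 stayed inside the interval of the value reported or, for the number of members, within 1.5 times of it. The number of members follows from the rule: 985 at a spacing of 25 kb, 251 at 100 kb, 143 from 1500 bp and 31 from 2000 bp. The gene-end share of members was 29.6% within 500 bp, 47.7% within 2 kb, 53.0% within 5 kb, 37.4% by overlap with the end and 52.5% with genes of all biotypes. In alternatives added after seeing the data, neighboured peaks of the same width had 12.3, 27.6, 41.8, 15.7 and 29.3% under the same settings, and 22.3% without the outer 5 Mb of chromosomes, where members had 43.5%. The gene-body share was 41.1% with a 500 bp distance, 24.9% with 2 kb, 21.1% with 5 kb, 33.9% by overlap and 35.5% in peaks of 2000 bp or more. The share outside genes was 23.1% from 1500 bp, 19.4% from 2000 bp and 16.8% with all biotypes. The share of sided gene-end members at a start was 100% at 100 kb, from 1500 bp, from 2000 bp, within 500 bp and by overlap, and 95.5% within 5 kb. The values of 100% were counted as outside the interval only because its upper limit, before rounding, lies just under 100%. The median body position was 0.276 from 2000 bp, where 31 peaks remain in all positions. The share of members near a listed gene was 1.75%, 0.699% from 1500 bp and 0% from 2000 bp. The gene-end and gene-body distances redraw the classes by construction; for the changes with width the cause was not tested.

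No paired analysis was possible because there is 1 library per antibody. Depth was unknown, and its part in the number, width and spacing of peaks was not tested.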
